A study of Mus musculus with 12 samples.

Results

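Expression of 10 genes of the growth hormone (GH) and insulin-like growth factor (IGF) axis was examined by RNA-seq in mesangial cells of the mouse kidney (MMC): the ligand gene Igf1, the receptor genes Igf1r and Ghr, the feedback inhibitor gene Socs2, and the binding protein genes Igfbp2, Igfbp3, Igfbp4, Igfbp5, Igfbp6 and Igfbp7. They were selected by gene symbol from the 25230 genes listed in the count data. Of these, 9 passed the filter for expressed genes, and Igfbp3 did not. Raw counts were scaled with TMM factors, which adjust library sizes for differences in composition, and are given as CPM, a share of the counts of a library. RPKM, which divides CPM by exon length in kilobases, is used to compare genes with each other. Values after ± are standard deviations over the libraries of a group, written SD with n, while SD as a condition stands for serum depletion.

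Primary MMC had been grown from pooled glomeruli of kidneys of wild-type (WT) mice and of the lncMGC-KO5 mouse line (KO), both on a C57BL/6 background. lncMGC is the long noncoding RNA that hosts the miR-379 megacluster of microRNAs. The KO line was made with Cas9 and guide RNAs on both sides of the lncMGC transcription start site, and a single mutant line was sequenced. Cells of each genotype were serum-depleted (SD) or given TGF-β at 10 ng/ml for 24 h, which gave 4 groups of 3 libraries: WT-SD and WT-TGF from wild-type cells, and KO-SD and KO-TGF from the mutant line. The treated cultures carry TGF-β as the only labelled difference from the SD cultures of their genotype, and whether libraries came from separate animals or cultures, as well as the age of the mice, is not given in the sources used here, so that p-values measure the spread between these libraries. With 1 line, genotype cannot be told apart from other differences between the cultures of WT and KO mice.

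The libraries held between 19898050 and 22827706 counts on genes, and 3 counts, taken as the floor of detection, were worth 0.130 to 0.160 CPM. The level of lncMGC itself was not analysed here, and KO stands throughout for the libraries labelled KO. Mirg, a noncoding gene that overlaps the 3′ part of lncMGC, averaged 2.33 ± 0.308 CPM (SD, n = 3) in WT-SD, 3.67 ± 0.548 in KO-SD, 3.59 ± 0.153 in WT-TGF and 4.26 ± 0.548 in KO-TGF. Its mean was thus higher in KO in both conditions, with overlap between the libraries under TGF-β. The study itself reports the other direction by RT-qPCR, with significantly lower Mirg in KO5 cells and no expression of lncMGC. The reason for this difference from the counts was not tested. All 8 mesangial markers were above the floor in every group, although Des, which encodes desmin, averaged 7.68 CPM in WT-SD and 0.529 in KO-SD. The summed level of 11 macrophage markers lay between 37.1 and 40.3 CPM in WT-SD, 20.1 and 24.0 in WT-TGF, 8.13 and 9.77 in KO-SD, and 2.35 and 2.68 in KO-TGF, with 10, 10, 4 and 3 of the markers above the floor. Adgre1, C1qa, C1qb and C1qc had no count in any KO library. The summed level of 5 podocyte markers was 440.0 to 465.0 CPM in WT and 203 to 222 in KO, although Nphs1 stayed at or below 3 counts everywhere. That of 5 tubular markers was 67.8 to 74.6 CPM in WT-SD, 17.2 to 18.8 in WT-TGF, 12.9 to 15.0 in KO-SD and 4.01 to 4.25 in KO-TGF. The 4 fibroblast markers, nearly all of it Col1a1, summed to 4160.0 to 4530.0 CPM in WT-SD, 7790.0 to 8180.0 in WT-TGF, 9420.0 to 10500.0 in KO-SD and 15500.0 to 16100.0 in KO-TGF. The 5 endothelial markers together stayed at or below 1.01 CPM. These marker levels move with genotype and with TGF-β, and their part in the values below was not tested. In bulk RNA, fewer cells of a type and less RNA per cell cannot be told apart.

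In the GH and IGF axis, circulating GH binds its receptor GHR, which acts through the kinase JAK2 and the transcription factor STAT5 to induce Igf1 and, as a feedback inhibitor, Socs2. IGF1 in turn signals through the receptor IGF1R to PI3K and AKT, and its access to the receptor is set by IGF-binding proteins, which hold IGFs in the extracellular space and are themselves cut by proteases such as PAPP-A. IGFBP7 binds IGFs only weakly and is also known as a matrix-associated protein, while mesangial cells are a known source and target of IGF1 in the glomerulus.

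**Figure D1:**
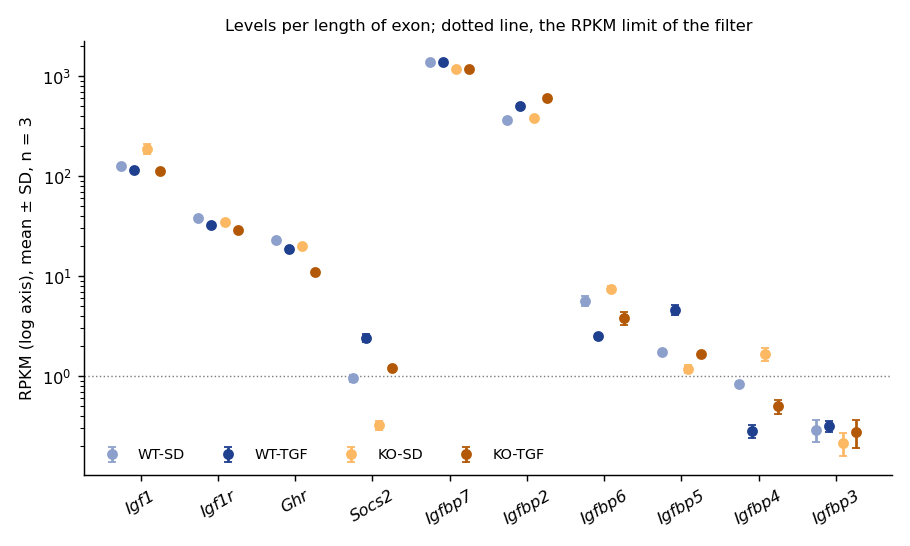
Level per exon length of the 10 genes in each group, in RPKM on a log axis, as mean ± SD of 3 libraries, with the dotted line at the RPKM of 1 used as filter. Igfbp7 and Igfbp2 stand highest, followed by Igf1, while Socs2 and Igfbp4 cross the dotted line between groups and Igfbp3 stays below it.

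Per exon length, the axis was dominated by a weakly binding and a classical binding protein gene. Igfbp7 averaged 1402 ± 13.9 RPKM in WT-SD, 1382 ± 22.4 in WT-TGF, 1174 ± 9.70 in KO-SD and 1168 ± 4.89 in KO-TGF (SD, n = 3), and it ranked 1, 4, 6 and 12 among the 11478 genes tested in these groups. Igfbp2, whose product binds IGF1 and IGF2 with high affinity, ranked 32, 27, 32 and 24 in the same order. Igf1 followed, ranking 147 in WT-SD, 218 in WT-TGF, 99 in KO-SD and 261 in KO-TGF. Mean RPKM of Igf1 lay between 112 and 188, that of Igf1r between 29.2 and 38.3 and that of Ghr between 11 and 23.2. The remaining genes were low, with mean RPKM of 2.49 to 7.45 for Igfbp6, 1.18 to 4.58 for Igfbp5, 0.322 to 2.40 for Socs2, 0.282 to 1.65 for Igfbp4 and 0.215 to 0.314 for Igfbp3. By RPKM, the order of the 5 highest genes (Igfbp7, Igfbp2, Igf1, Igf1r, Ghr) was the same in all groups. That order rests on exon length. In CPM, Igf1 averaged above Igfbp2 in all groups except KO-TGF, and above Igfbp7 in KO-SD (1860 against 1419). The order of the lower genes by RPKM changed. Igfbp5 was above Igfbp6 in WT-TGF and below it elsewhere, Igfbp4 was above Igfbp5 and Socs2 in KO-SD and below both elsewhere, and the mean of Igfbp3 exceeded that of Igfbp4 in WT-TGF by less than their SD.

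Igfbp2 and Igfbp7 together made up between 99.3% and 99.7% of the summed RPKM of the 6 binding protein genes in every library, and the balance between them shifted. The share of Igfbp2 was 20.4% ± 0.910 in WT-SD, 26.6% ± 0.543 in WT-TGF, 24.5% ± 0.153 in KO-SD and 33.9% ± 0.0638 in KO-TGF (SD, n = 3), and that of Igfbp7 was 79.1%, 73.0%, 74.8% and 65.7%. The highest share of Igfbp2 was thus in KO-TGF. A high level per length does not itself give the amount of protein, which was not measured.

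Igfbp2 and Igfbp5 are neighbours on chromosome 1, transcribed toward each other with 5457 bases between their ends in GENCODE (mm10), Igfbp2 at chr1:72824503-72852474 on the plus strand and Igfbp5 at chr1:72857932-72874884 on the minus strand. They were also the only ones of the 5 binding protein genes tested to rise with TGF-β, as described below, so their promoters are shown beside those of Igfbp4 and Igfbp6, the pair that fell. The sequences are from RefSeq (GRCm38.p6, the assembly also called mm10) and run 5′ to 3′ on the strand of the gene, from 250 bases before to 50 bases after the annotated start. Igfbp2 has 2 such starts, of which the first is shown (chr1:72824230-72824529, plus strand). Igfbp5 lies at chr1:72874816-72875115 (minus strand), Igfbp4 at chr11:99040994-99041293 (plus strand) and Igfbp6 at chr15:102143936-102144235 (plus strand). Capitals mark matches, on either strand, to 5 motifs. CAGAC is a core of the sites of SMADs, the transcription factors of TGF-β signaling, and GTCTAGAC is their palindromic site, which does not contain that core. AP-1 binds TGACTCA and TTCNNNGAA is the site of STAT proteins. The last motif is TATAAA, the core promoter element known as the TATA box.
Igfbp2: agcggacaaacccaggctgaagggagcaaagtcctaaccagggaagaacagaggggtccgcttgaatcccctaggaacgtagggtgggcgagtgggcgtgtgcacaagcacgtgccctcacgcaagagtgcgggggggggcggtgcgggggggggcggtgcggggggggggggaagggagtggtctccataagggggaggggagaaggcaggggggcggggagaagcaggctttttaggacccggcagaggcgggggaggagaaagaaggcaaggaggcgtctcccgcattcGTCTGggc
Igfbp5: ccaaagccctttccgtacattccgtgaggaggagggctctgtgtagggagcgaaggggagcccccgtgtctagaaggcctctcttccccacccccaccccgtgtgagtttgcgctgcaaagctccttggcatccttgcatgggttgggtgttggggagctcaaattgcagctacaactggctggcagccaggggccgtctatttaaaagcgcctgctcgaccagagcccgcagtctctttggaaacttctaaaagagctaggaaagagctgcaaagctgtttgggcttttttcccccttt
Igfbp4: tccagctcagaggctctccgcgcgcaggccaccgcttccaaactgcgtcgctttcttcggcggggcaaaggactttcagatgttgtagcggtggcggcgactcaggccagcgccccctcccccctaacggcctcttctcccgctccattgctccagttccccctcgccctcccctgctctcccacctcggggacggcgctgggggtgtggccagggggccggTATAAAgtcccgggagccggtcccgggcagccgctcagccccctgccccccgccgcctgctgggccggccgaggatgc
Igfbp6: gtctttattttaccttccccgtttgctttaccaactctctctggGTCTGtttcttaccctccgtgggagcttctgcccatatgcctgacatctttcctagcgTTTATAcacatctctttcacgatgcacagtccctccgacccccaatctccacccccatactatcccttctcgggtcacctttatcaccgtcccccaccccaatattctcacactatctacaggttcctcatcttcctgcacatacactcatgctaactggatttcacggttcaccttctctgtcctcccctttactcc

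Among these windows, Igfbp2 held CAGAC at position 43 after the start, Igfbp6 held CAGAC at -206 and TATAAA at -148, and Igfbp4 held TATAAA at -28. Positions in Igfbp6 are from its RefSeq start, chr15:102144186. Its window ends before the GENCODE start at chr15:102144362, so the bases next to that start were not searched. None of the 5 motifs was found in the window of Igfbp5, one of the genes that rose most. In all, 11 promoters of 9 of the 10 genes were searched. CAGAC was also found at the second start of Igfbp2, at the second start of Ghr and in the window of Igf1r. TATAAA was also found at the second start of Ghr, at -188, and TGACTCA only at the second start of Igfbp2, at position -39. Of 32851 mouse promoters of the same length in RefSeq, 49.6% held CAGAC, 5.20% TGACTCA, 8.30% TTCNNNGAA, 13.6% TATAAA and 0.213% GTCTAGAC. A match is a description of the letters and not a bound site. Neither TTCNNNGAA nor GTCTAGAC was found in any of the 11 windows, which says nothing of the factors, since these letters may stand outside them. The window of Igf1 is placed on a start at chr10:87861111, inside the gene. The bases next to the GENCODE start of Igf1 at chr10:87858265 were not searched. No promoter of Socs2 was analysed here.

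TGF-β changed most of these genes in both genotypes. In the edgeR quasi-likelihood test across 11478 genes with Benjamini-Hochberg adjustment at FDR 5%, 3 of the 9 genes tested rose in WT (Socs2, Igfbp2 and Igfbp5) and 5 fell (Igf1, Igf1r, Ghr, Igfbp4 and Igfbp6), against 35.9% higher and 36.6% lower among all genes tested. The same 3 rose and the same 5 fell in KO, where 35.0% of all genes tested were higher and 39.1% lower. Igfbp7 passed the test in neither genotype. Since 72.5% of all genes tested passed in WT and 74.0% in KO, the number of called members is near that background, and the sizes of the changes carry more than their count. The called genes did not overlap between the SD and TGF-β libraries of their genotype, as was the case for 75.2% of all genes tested in WT and 74.4% in KO.

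**Figure D2:**
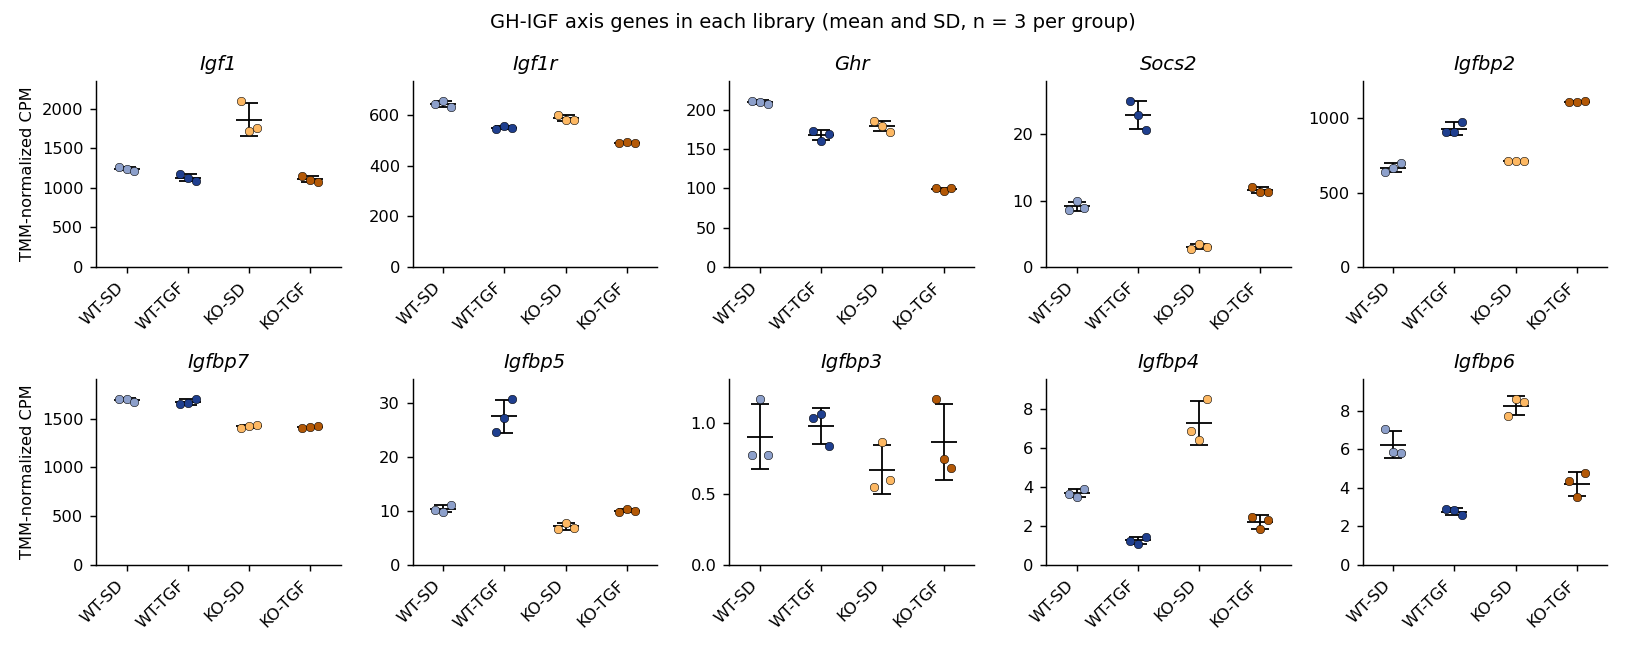
TMM-normalized CPM of the 10 genes in each of the 12 libraries (points), with group mean and SD (bars, n = 3), each panel on its own axis starting at 0. Socs2 and Igfbp5 are highest in WT-TGF, Igf1, Igfbp4 and Igfbp6 in KO-SD, Igfbp2 in KO-TGF, and Igfbp7 separates the genotypes but not the treatments.

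Ghr, at chr15:3317760-3583492 on the minus strand, encodes the GH receptor and was lowest in KO cells given TGF-β. It read 211, 211 and 207 CPM in the WT-SD libraries, 173, 160.4 and 169.6 in WT-TGF, 186, 180.0 and 172 in KO-SD, and 100.5, 96.9 and 100.1 in KO-TGF. The WT-SD libraries were the highest and the KO-TGF libraries the lowest, while the WT-TGF and KO-SD libraries partly overlapped, a pair of groups that was not compared. Ghr fell in WT by 0.32 on the log2 scale (SE 0.0313, edgeR adjusted p = 1.66e-10) and in KO by 0.86 (SE 0.0333, edgeR adjusted p = 4.75e-20), and KO-TGF was lower than WT-TGF with a log2 difference of -0.76 (SE 0.0335, edgeR adjusted p = 3.47e-18). The response was larger in KO, with an interaction of -0.53 (SE 0.0457, edgeR adjusted p = 1.63e-10).

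Socs2, at chr10:95385362-95417180 on the minus strand, encodes the SH2 protein that binds GHR and limits GH signaling, and it moved in the opposite direction to Ghr under TGF-β. Its levels were 8.57, 9.95 and 8.85 CPM in WT-SD, 25.0, 22.9 and 20.7 in WT-TGF, 2.76, 3.43 and 3.03 in KO-SD, and 12.1, 11.3 and 11.3 in KO-TGF, from 60 to 529 counts per library. No group overlapped another: KO-SD was lowest, WT-SD next, then KO-TGF, and WT-TGF was highest. Socs2 rose 2.5-fold with TGF-β in WT (log2 fold change 1.32, SE 0.0788, edgeR adjusted p = 2.32e-15) and 3.76-fold in KO (1.91, SE 0.119, edgeR adjusted p = 5.12e-15). KO was lower than WT both in SD (log2 difference -1.57, SE 0.121, edgeR adjusted p = 2.16e-12) and under TGF-β (-0.99, SE 0.0781, edgeR adjusted p = 4.28e-12). The proportional response was thus larger in KO, with an interaction of 0.59 (SE 0.150, edgeR adjusted p = 0.00352), while the increase in level was smaller, 8.47 CPM in KO against 13.7 CPM in WT. In KO-SD it was below an RPKM of 1 in all 3 libraries and passed the filter through the other groups.

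Igf1, at chr10:87858265-87937042 on the plus strand, encodes the ligand of IGF1R and was highest in serum-depleted KO cells. It read 1267, 1244 and 1219 CPM in WT-SD, 1173, 1122 and 1088 in WT-TGF, 2098, 1721 and 1761 in KO-SD, and 1151, 1099 and 1074 in KO-TGF. The KO-SD libraries stood above all others, and the WT-TGF and KO-TGF libraries overlapped. TGF-β lowered Igf1 little in WT, by 0.14 on the log2 scale (SE 0.0428, edgeR adjusted p = 0.00437), a call that was lost with DESeq2 (log2 fold change -0.15, DESeq2 adjusted p = 0.0622). In KO it fell by 0.75 (SE 0.0429, edgeR adjusted p = 7.53e-16). In level, Igf1 fell by 752 CPM in KO and fell by 115 CPM in WT. KO was higher than WT in SD (0.58, SE 0.0427, edgeR adjusted p = 7.16e-13), but the genotypes did not pass the test under TGF-β, where the log2 difference was -0.03 with a 95% interval from -0.11 to 0.06 (edgeR adjusted p = 0.636). With library size alone this difference was -0.15 and was called (edgeR adjusted p = 0.0033). Among the 9 members tested, Igf1 was the one whose genotype difference was called in SD and not under TGF-β with TMM, and the difference between these contrasts is itself the interaction, -0.61 (SE 0.0605, edgeR adjusted p = 3.54e-09). Igf1 overlaps Igf1os on the opposite strand, and its counts are for its own strand. The library KO-SD replicate 1 stood apart in Igf1, and without it Igf1 in KO fell by 0.65, with the SD difference at 0.49 and the interaction at -0.51, each still past the threshold. That library also stood apart over all genes compared. The chi-square per degree of freedom of its counts was 5.41 against replicate 2 and 5.10 against replicate 3, and 2.48 between replicates 2 and 3.

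Igf1r, at chr7:67952827-68233668 on the plus strand, encodes the receptor through which IGF1 acts. It read 644, 655 and 632 CPM in WT-SD, 546, 555 and 548 in WT-TGF, 599.8, 578 and 579.8 in KO-SD, and 490.1, 491 and 488 in KO-TGF. The 4 groups did not overlap, and both TGF-β and the KO genotype went with lower levels. TGF-β lowered Igf1r in WT by 0.23 on the log2 scale (SE 0.0226, edgeR adjusted p = 2.57e-10) and in KO by 0.26 (SE 0.0228, edgeR adjusted p = 1.86e-11), and KO was lower than WT in SD by a log2 difference of -0.14 (SE 0.0225, edgeR adjusted p = 6.84e-06) and under TGF-β by -0.17 (SE 0.0228, edgeR adjusted p = 3.32e-07). No difference in response was detected between genotypes, with an interaction of -0.03 and a 95% interval from -0.09 to 0.03 (edgeR adjusted p = 0.557).

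Igfbp2 rose with TGF-β and was highest in KO-TGF. Its levels were 638, 663 and 699.8 CPM in WT-SD, 906, 911 and 979 in WT-TGF, 710.4, 710.1 and 711 in KO-SD, and 1113, 1108 and 1117 in KO-TGF. The groups did not overlap, although the highest WT-SD library lay close to the KO-SD libraries. Igfbp2 rose 1.40-fold in WT (log2 fold change 0.48, SE 0.0281, edgeR adjusted p = 1.35e-15) and 1.57-fold in KO (0.65, SE 0.0281, edgeR adjusted p = 7.30e-19). The response was slightly larger in KO (interaction 0.16, SE 0.0396, edgeR adjusted p = 0.00202), and under TGF-β KO was higher than WT (0.26, SE 0.0279, edgeR adjusted p = 3.76e-09). The difference in SD was small, 0.09 (SE 0.0281, edgeR adjusted p = 0.00666). It was no longer called without WT-SD replicate 1 (0.06, edgeR adjusted p = 0.0915) or when counts were scaled by library size alone (0.02, edgeR adjusted p = 0.584).

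Igfbp5, whose product binds IGFs as well as matrix components, had the largest difference in response between the genotypes among the 9 genes tested. It read 10.2, 9.78 and 11.1 CPM in WT-SD, 24.7, 27.1 and 30.8 in WT-TGF, 6.62, 7.73 and 6.88 in KO-SD, and 9.68, 10.3 and 10.0 in KO-TGF, from 144 to 623 counts per library. The KO-TGF libraries lay at the level of the WT-SD libraries, and the WT-TGF libraries were far above the rest. Igfbp5 rose 2.66-fold in WT (log2 fold change 1.41, SE 0.0770, edgeR adjusted p = 2.87e-16) and 1.42-fold in KO (0.50, SE 0.105, edgeR adjusted p = 0.0001). KO was lower than WT in SD (-0.55, SE 0.101, edgeR adjusted p = 3.10e-05) and more so under TGF-β (-1.46, SE 0.0808, edgeR adjusted p = 9.60e-16). The interaction was -0.91 (SE 0.133, edgeR adjusted p = 3.54e-06). Its neighbour Igfbp2 thus had the opposite sign both in the KO to WT difference and in the interaction, although both genes rose with TGF-β in each genotype.

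Igfbp4, at chr11:99041244-99054392 on the plus strand, encodes a binding protein that inhibits IGF action and is the main target of PAPP-A. Its levels were 3.65, 3.48 and 3.88 CPM in WT-SD, 1.23, 1.07 and 1.43 in WT-TGF, 6.89, 6.42 and 8.53 in KO-SD, and 2.46, 1.82 and 2.31 in KO-TGF, from 24 to 186 counts per library. KO-SD was highest and WT-TGF lowest, without overlap between groups. Igfbp4 fell by 1.56 on the log2 scale in WT (SE 0.191, edgeR adjusted p = 1.98e-08) and fell by 1.73 in KO (SE 0.148, edgeR adjusted p = 9.97e-12). KO was higher in SD (0.99, SE 0.125, edgeR adjusted p = 6.65e-08) and under TGF-β (0.82, SE 0.224, edgeR adjusted p = 0.00247). A difference in response was not detected at this depth, since the interaction of -0.17 had a 95% interval from -0.69 to 0.35 (edgeR adjusted p = 0.707). Igfbp4 exceeded an RPKM of 1 in the 3 KO-SD libraries only, so it passed the filter through the group where it was highest, and its calls were also made without a filter.

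Igfbp6, at chr15:102144362-102149511 on the plus strand, encodes a binding protein with a preference for IGF2 and followed the same order of groups as Igfbp4. It read 7.06, 5.87 and 5.84 CPM in WT-SD, 2.88, 2.85 and 2.57 in WT-TGF, 7.72, 8.64 and 8.49 in KO-SD, and 4.33, 3.53 and 4.78 in KO-TGF, from 52 to 185 counts per library. The groups did not overlap, with KO-SD highest and WT-TGF lowest. It fell by 1.17 on the log2 scale in WT (SE 0.134, edgeR adjusted p = 5.57e-09) and fell by 0.97 in KO (SE 0.119, edgeR adjusted p = 1.76e-08). KO was higher in SD (0.41, SE 0.104, edgeR adjusted p = 0.00148) and under TGF-β (0.60, SE 0.153, edgeR adjusted p = 0.00127). The interaction was 0.20 with a 95% interval from -0.16 to 0.56 (edgeR adjusted p = 0.489).

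Igfbp7, at chr5:77349240-77408041 on the minus strand, differed by genotype and not detectably by treatment. It read 1704, 1705 and 1675 CPM in WT-SD, 1648, 1665 and 1701 in WT-TGF, 1406, 1421 and 1430.0 in KO-SD, and 1407, 1410.0 and 1419 in KO-TGF. The WT libraries overlapped each other between treatments, as did the KO libraries, and all WT libraries were above all KO libraries. KO was lower in SD (-0.26, SE 0.0196, edgeR adjusted p = 1.83e-12) and under TGF-β (-0.24, SE 0.0196, edgeR adjusted p = 6.61e-12). The change with TGF-β was -0.02 in WT (95% interval from -0.06 to 0.02, edgeR adjusted p = 0.358) and -0.01 in KO (from -0.05 to 0.03, edgeR adjusted p = 0.760). With library size alone, which put the median of all genes at -0.16 in WT and -0.226 in KO, these values were -0.18 and -0.21 and were called, so Igfbp7 then moved with the median. Its counts are for the strand of the gene, as it overlaps Polr2b on the opposite strand.

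Igfbp3, at chr11:7206086-7213923 on the minus strand, encodes the main IGF carrier of serum and was close to the floor here, with 12 to 27 counts per library. It read 0.775, 1.17 and 0.775 CPM in WT-SD, 1.04, 1.07 and 0.839 in WT-TGF, 0.551, 0.869 and 0.596 in KO-SD, and 1.18, 0.748 and 0.682 in KO-TGF. The groups overlapped. In the unfiltered fit of 18565 genes, the change with TGF-β was 0.15 in WT (95% interval from -0.38 to 0.67, edgeR adjusted p = 0.694) and 0.39 in KO (from -0.22 to 1.0, edgeR adjusted p = 0.327). Changes within these bounds were not excluded at this depth. KO against WT gave -0.41 in SD (edgeR adjusted p = 0.290) and -0.17 under TGF-β (edgeR adjusted p = 0.701), and the interaction was 0.24 (edgeR adjusted p = 0.856).

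Between the genotypes, 4 of the 9 genes tested were higher in KO in SD (Igf1, Igfbp2, Igfbp4 and Igfbp6) and 5 lower (Igf1r, Ghr, Socs2, Igfbp5 and Igfbp7), against 30.6% higher and 25.3% lower among all genes tested. Both receptor genes and the feedback inhibitor gene were thus lower in KO, and the ligand gene higher. Under TGF-β, 3 were higher (Igfbp2, Igfbp4 and Igfbp6) and the same 5 lower, against 27.3% and 27.7% of all genes tested. The libraries of the genotypes did not overlap for all 9 genes in SD and for 8 under TGF-β, and the same held for 59.2% and 61.6% of all genes tested. Ghr was lower in KO by -0.23 in SD (SE 0.0311, edgeR adjusted p = 3.02e-07). The SD and TGF-β comparisons use different libraries. The summed macrophage, podocyte and tubular markers were also lower in KO than in WT in both conditions, and the fibroblast and mesangial sums higher. The mesangial sum was mostly Acta2 and Tagln, and the fibroblast sum mostly Col1a1. Unlike these sums, Des and Pdgfra were lower in KO in both conditions, and Pdgfrb and Itga8 under TGF-β. Mean Des was 5.61 CPM in WT-TGF and 0.247 in KO-TGF. The part of these markers in the differences was not tested.

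**Figure D3:**
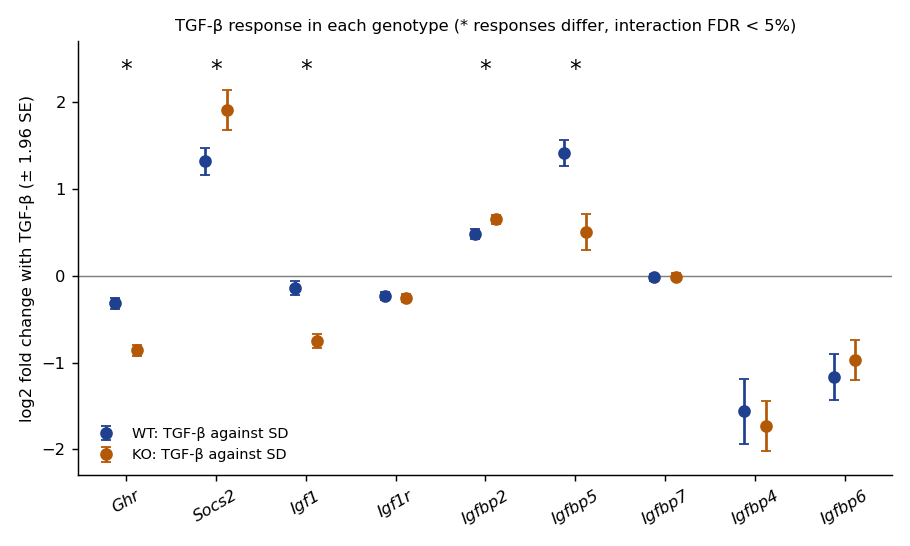
Log2 fold change with TGF-β in WT and in KO for the 9 genes tested, with bars of 95% intervals from the edgeR fit of 12 libraries, and a star where the responses differed at an interaction FDR of 5%. Ghr and Igf1 fell more in KO, Socs2 and Igfbp2 rose more in KO, and Igfbp5 rose less.

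The response to TGF-β differed between the genotypes for 5 of the 9 genes, higher in KO on the log2 scale for Socs2 and Igfbp2 and lower for Igf1, Ghr and Igfbp5, where 8.77% of all genes tested had a higher and 16.5% a lower interaction. The 5 genes took 3 forms. Ghr and Igf1 fell in both genotypes and more in KO, Socs2 and Igfbp2 rose in both and more in KO, and Igfbp5 rose in both but less in KO. For Igf1 the starting levels differed and the levels under TGF-β did not pass the test, whereas for Ghr the larger difference between genotypes was under TGF-β.

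Genes with a pattern most like that of a member over the 12 libraries were named for the 4 members with the widest range and at least 5 CPM in their highest group, by Pearson's r of log2 CPM, as a description in which groups and libraries are shared. For Socs2 these were Smtn (r = 0.994), Mast4 (0.993) and Mid1ip1 (0.992), and for Igfbp5 Lbh (0.992), Sh3pxd2a (0.985) and Plod2 (0.983). For Igfbp4 they included Samd14 (0.989) and Lamp1 (0.988), and for Igfbp6 they were Btd (0.984), Diras2 (0.980) and Sgce (0.978). Like Socs2, Mast4 averaged highest in WT-TGF (340.0 CPM) and lowest in KO-SD (151). Diras2 went with Igfbp6 from 9.88 CPM in KO-SD to 0.438 in WT-TGF.

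The other genes of the pathway were read from 4 lists of 67 genes, of which 52 were tested. With TGF-β, 17 of the 52 were higher and 28 lower in WT, and 13 higher and 28 lower in KO. With library size alone the split was 10 higher and 34 lower in WT, and 8 and 40 in KO. KO against WT gave 19 higher and 18 lower in SD (12 and 24 with library size alone) and 15 higher and 23 lower under TGF-β (9 and 30). The interaction was higher for 9 and lower for 10 (4 and 15 with library size alone). The counts with TMM are to be read against the percentages of all genes tested given above, which come from the same fit. Those percentages do not apply to the counts with library size alone. With that scaling, the median change of all genes with TGF-β was -0.16 in WT and -0.226 in KO. It called 75.4% of genes in WT and 78.1% in KO, in either direction.

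**Figure D4:**
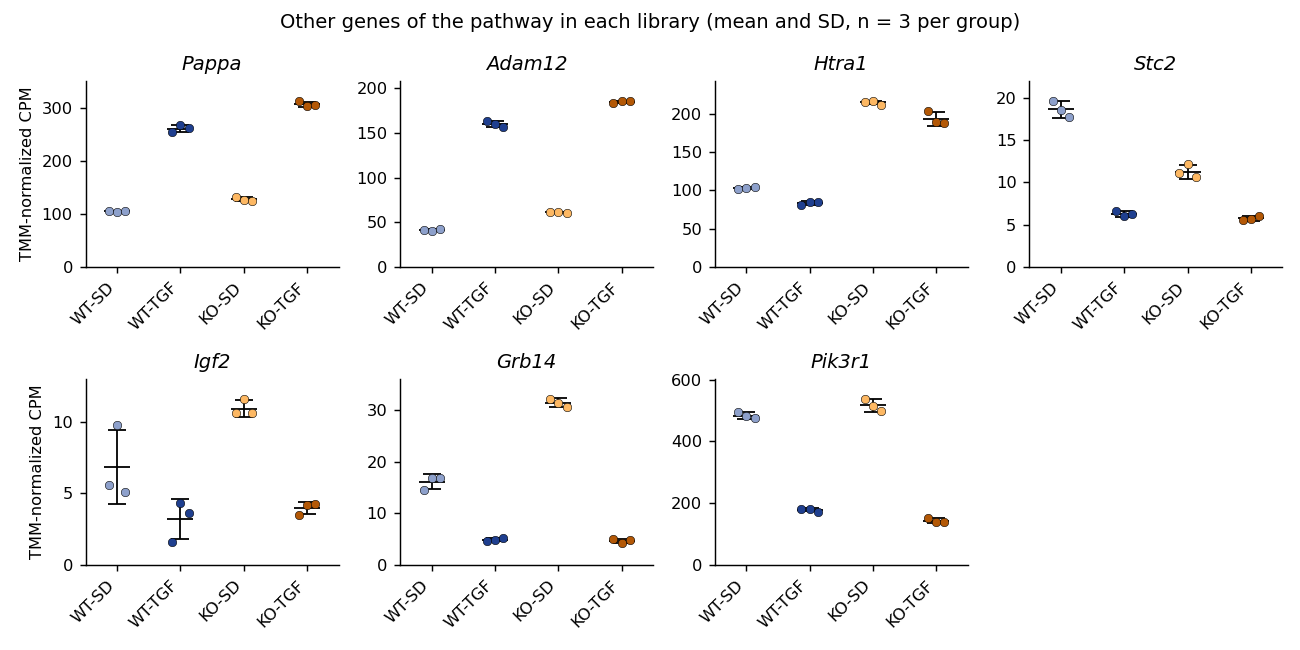
TMM-normalized CPM of 7 other genes of the pathway in each of the 12 libraries (points), with group mean and SD (bars, n = 3), each panel on its own axis starting at 0. Pappa and Adam12 are high in the TGF-β groups, Htra1 in the KO groups, Stc2 in WT-SD, and Igf2 and Grb14 in KO-SD.

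Among the other ligands, receptors and binding proteins, 3 of 12 genes were tested (Igf2, Igf2r and Insr), and all 3 fell with TGF-β in both genotypes. Of all genes tested, 36.6% fell in WT and 39.1% in KO. Gh, Igfbp1, Igfals and Igfbpl1 had at most 1 count in any library and Ghrh none, so neither GH nor these binding proteins were detected above the floor. Igf2, which encodes the second IGF ligand, read 5.56, 9.78 and 5.06 CPM in WT-SD, 1.61, 4.32 and 3.60 in WT-TGF, 10.6, 11.6 and 10.6 in KO-SD, and 3.48, 4.17 and 4.25 in KO-TGF. It was highest in KO-SD, like Igf1, with WT-SD replicate 2 standing apart in its group. Igf2 fell in WT by 1.10 on the log2 scale (SE 0.217, edgeR adjusted p = 4.90e-05) and in KO by 1.46 (SE 0.194, edgeR adjusted p = 8.33e-08). Its higher level in KO-SD (0.68, SE 0.164, edgeR adjusted p = 0.000829) was not called with DESeq2 (0.67, DESeq2 adjusted p = 0.0956). Its interaction was -0.36 (edgeR adjusted p = 0.432) and was called without WT-SD replicate 2 (-0.73, edgeR adjusted p = 0.0406).

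Proteases of the binding proteins and their inhibitors gave 5 tested genes of 8, of which 2 rose and 2 fell with TGF-β in WT, and 3 rose and 2 fell in KO. One of the 3, Adam9, rose by only 0.09 on the log2 scale and was called lower with library size alone (-0.11, edgeR adjusted p = 0.000525). Of all genes tested, 35.9% rose and 36.6% fell in WT, and 35.0% and 39.1% in KO. Pappa, which encodes the protease of IGFBP4, averaged 105 ± 1.02 CPM in WT-SD, 261 ± 6.42 in WT-TGF, 128 ± 3.5 in KO-SD and 307 ± 4.76 in KO-TGF (SD, n = 3). Stc2, which encodes an inhibitor of PAPP-A, averaged 18.6 ± 0.959, 6.30 ± 0.347, 11.2 ± 0.800 and 5.73 ± 0.270 CPM in the same groups. Pappa and Stc2 thus moved in opposite directions with TGF-β. Pappa rose by 1.31 in WT (SE 0.0288, edgeR adjusted p = 3.18e-26) and 1.27 in KO (SE 0.0284, edgeR adjusted p = 4.29e-26) on the log2 scale. Stc2 fell by 1.56 in WT (SE 0.0812, edgeR adjusted p = 8.19e-17) and fell by 0.97 in KO (SE 0.0954, edgeR adjusted p = 2.07e-10). Igfbp4, the substrate gene, fell in both genotypes as given above. The interaction was -0.04 for Pappa (edgeR adjusted p = 0.492) and 0.59 for Stc2 (SE 0.131, edgeR adjusted p = 0.000818).

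Adam12, which encodes a membrane protease that cuts IGFBP3 and IGFBP5, averaged 41.0 ± 1.03 CPM in WT-SD, 160.0 ± 3.46 in WT-TGF, 61.1 ± 0.630 in KO-SD and 185 ± 1.25 in KO-TGF. It rose in WT by 1.97 (SE 0.0330, edgeR adjusted p = 4.00e-29) and less in KO, by 1.60 (SE 0.0314, edgeR adjusted p = 1.50e-27), with an interaction of -0.37 (SE 0.0460, edgeR adjusted p = 2.96e-07). Htra1, which encodes a secreted serine protease, stood out by genotype, with 103 ± 1.19 CPM in WT-SD against 215 ± 2.31 in KO-SD and 83.5 ± 2.37 in WT-TGF against 194 ± 9.18 in KO-TGF. With TGF-β it fell, by 0.30 on the log2 scale in WT (edgeR adjusted p = 4.36e-09) and fell by 0.15 in KO (edgeR adjusted p = 0.000101). It was higher in KO in SD (1.06, SE 0.0321, edgeR adjusted p = 3.31e-22) and under TGF-β (1.22, SE 0.0333, edgeR adjusted p = 2.72e-23). In both conditions 4 of the 5 tested genes of this list were higher in KO (Adam9, Adam12, Pappa and Htra1), where 30.6% of all genes tested were higher in SD and 27.3% under TGF-β, and none of these directions turned under another scaling.

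Of the receptor adaptors and PI3K-AKT genes, 28 of 30 were tested, with 9 higher and 15 lower under TGF-β in WT, and 7 and 15 in KO. Of all genes tested, 35.9% were higher and 36.6% lower in WT, and 35.0% and 39.1% in KO. Pik3r1, a regulatory subunit of PI3K, averaged 484 ± 10.1 CPM in WT-SD, 178 ± 5.11 in WT-TGF, 517 ± 20.9 in KO-SD and 143 ± 7.08 in KO-TGF. It fell by 1.44 in WT (SE 0.0322, edgeR adjusted p = 4.62e-26) and fell by 1.86 in KO (SE 0.0331, edgeR adjusted p = 1.46e-28), with an interaction of -0.41 (SE 0.0457, edgeR adjusted p = 2.73e-08). Grb14, an adaptor that inhibits the insulin receptor, averaged 16.1 ± 1.48, 4.86 ± 0.227, 31.4 ± 0.852 and 4.62 ± 0.414 CPM in the same order. It had the pattern of Igf1 between genotypes, higher in KO in SD (0.96, SE 0.0623, edgeR adjusted p = 3.44e-14) and at -0.07 under TGF-β (edgeR adjusted p = 0.648), with an interaction of -1.04 (SE 0.139, edgeR adjusted p = 8.48e-07).

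In the list of GHR signaling, 16 of 17 genes were tested, and KO was higher for 2 and lower for 11 in SD and higher for 3 and lower for 10 under TGF-β. Of all genes tested, 30.6% were higher and 25.3% lower in SD, and 27.3% and 27.7% under TGF-β. The median log2 difference of the list was -0.16 in SD and -0.17 under TGF-β, where the median of all genes tested was 0.019 and -0.003. The core of the GHR pathway is given as well, chosen after its values were seen. Jak2, the kinase bound to GHR, averaged 230.0 ± 3.41, 155 ± 5.06, 146 ± 5.01 and 123 ± 3.44 CPM (WT-SD, WT-TGF, then KO-SD, KO-TGF), and was lower in KO in SD (-0.66, SE 0.0309, edgeR adjusted p = 1.63e-17) and under TGF-β (-0.33, SE 0.0324, edgeR adjusted p = 4.95e-10).

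Cish, another feedback inhibitor gene induced by STAT5, averaged 15.4 ± 0.823 CPM in WT-SD, 10.4 ± 0.787 in WT-TGF, 7.71 ± 0.718 in KO-SD and 5.65 ± 1.23 in KO-TGF. It was lower in KO, as Socs2 was, with log2 differences of -1.0 in SD (SE 0.0956, edgeR adjusted p = 2.72e-10) and -0.89 under TGF-β (SE 0.116, edgeR adjusted p = 1.15e-07). It fell with TGF-β, by 0.56 in WT (SE 0.0897, edgeR adjusted p = 2.49e-06) and by 0.45 in KO (SE 0.123, edgeR adjusted p = 0.00182), where Socs2 rose. Stat5a averaged 20.3, 13, 15.9 and 13.9 CPM and Stat5b 39.7, 35.9, 35.1 and 32.0 CPM in the same order. In SD both were lower in KO, by a log2 difference of -0.35 for Stat5a (edgeR adjusted p = 2.54e-05) and -0.18 for Stat5b (edgeR adjusted p = 0.0005). Serum-depleted KO cells thus had lower counts of Ghr, Jak2, Stat5a, Stat5b, Cish and Socs2, and higher counts of Igf1, than serum-depleted WT cells. Under TGF-β the Stat5a difference did not pass (0.09, edgeR adjusted p = 0.288), while Stat5b stayed lower in KO (-0.17, edgeR adjusted p = 0.00228). The interaction was called for Stat5a (0.44, edgeR adjusted p = 0.000782) and Jak2 (0.33, edgeR adjusted p = 1.07e-06).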

How the data were processed

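RNA-seq counts of 12 libraries in 4 groups of 3 were used, grouped by the sample labels. The authors aligned single-end reads of mRNA libraries to mm10 with TopHat and counted them per RefSeq gene with HTSeq, strand-specific and without poor alignments. The deposited values are these raw counts, whole numbers per gene and library, without normalization. Rows that name no gene (10.3% to 15.4% of a library without a feature, 11.2% to 11.7% not unique, 0.225% to 0.274% ambiguous) were left out, and the alignment was not repeated.

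Counts were scaled with TMM, and genes with an RPKM over 1 in at least 1 library were kept, with exon lengths from GENCODE matched for 24716 of 25230 genes. One edgeR quasi-likelihood fit of all 12 libraries (edgeR 4.0.16, R 4.3.3) gave 5 contrasts, adjusted by Benjamini-Hochberg over the 11478 genes tested, with calls at an FDR of 0.05 and no fold threshold. SE is the log2 fold change divided by the root of F, and 95% intervals are normal intervals from it. Intervals and the floor of 3 counts cover counting error or the spread between libraries only. Igfbp3 came from the unfiltered fit of 18565 genes. Tables and figures were made with Python 3.11.15 and pandas 2.3.3.

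All 10 members are named. From each pathway list, at most 4 genes with an FDR under 0.05, a log2 fold change over 1 in size and a mean of 5 CPM in the higher group are named, with the largest changes first. Other names are said to be chosen after their values were seen, or stand as the tested genes of a short list. Some items that these rules name are not reported here. The 3 genes of like pattern were ranked by Pearson's r of log2 CPM with a prior count of 2. Members and lists were chosen with earlier results of these data known. Alternatives were DESeq2 1.42.0, library size alone, a CPM filter, no filter, the compared groups only, a replicate block and leaving out each library. Promoter sequences are from RefSeq, and proteins were not used here.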

Additional observations from a re-analysis of the deposited data

Results flagged for a closer look

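The response to TGF-β differed between WT and KO, by the interaction of genotype and treatment in the edgeR fit, for 5 of the 9 genes tested. Of all genes tested, 8.77% had a higher and 16.5% a lower interaction. On the log2 scale, the KO response minus the WT response was -0.61 for Igf1, -0.53 for Ghr, 0.59 for Socs2, 0.16 for Igfbp2 and -0.91 for Igfbp5. In each of the 5 the response had the same sign in both genotypes.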

How the results depend on the processing

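For the 10 genes, 811 fold changes were recomputed under alternatives. Of these, 805 kept their side of the threshold, 3 lost their call, 3 gained one and 0 turned with a call in either fit. Uncalled values that changed sign count among the 805, such as Igfbp7 with TGF-β in WT (-0.02, and 0.01 with no filter). The counts of members called in each direction stayed within 1.5 times of the values given. The exceptions were the fall of Igf1 in WT with DESeq2 (-0.15, adjusted p = 0.0622), the SD difference of Igfbp2 with library size alone (0.02) and without WT-SD replicate 1 (0.06), Igfbp7 with library size alone in WT (-0.18) and KO (-0.21), and Igf1 between KO-TGF and WT-TGF with library size alone (-0.15, edgeR adjusted p = 0.0033). For the other pathway genes named, a check was added after seeing the data. Of 1869 values, 1816 kept their side of the threshold, and uncalled values that changed sign are again among them. Another 38 lost their call, 12 gained one and 3 turned with a call in either fit. The 3 were with library size alone, Adam9 under TGF-β in WT (-0.13) and in KO (-0.11, where it was 0.09 with TMM) and Socs4 in KO (-0.20). The number of pathway genes higher then fell to 10 in WT and 8 in KO with TGF-β, 12 in SD and 9 under TGF-β for KO against WT, and 4 for the interaction, which moved with the median of all genes (-0.16 in WT and -0.226 in KO with TGF-β).

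The replicate numbers are not stated to mark a shared culture or day. Deviations of the 18 same-number pairs of libraries correlated between -0.066 and 0.225, with 4 over 0.1. The main fit did not pair the samples by number. Even so, 10 of the 12 libraries correlated best with one of their own number, and a pairing by number was not excluded. With the replicate block, 8425 genes were called for TGF-β in WT (8322 without it), 8587 in KO (8496), 6621 for KO against WT in SD (6426), 6481 under TGF-β (6315) and 3148 for the interaction (2905), and no call of a member changed. Depth limits Igfbp3, with 12 to 27 counts, and the interaction of Igfbp4.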

Other observations

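The other genes of the SOCS family are listed here after their values were seen. Of Socs1, Socs3, Socs4, Socs5, Socs6 and Socs7, 3 rose with TGF-β in WT and 1 fell, and 2 rose and 2 fell in KO, by edgeR at an FDR of 5%. With 35.9% of all genes tested higher and 36.6% lower in WT, and 35.0% and 39.1% in KO, these counts of 6 genes are near the background. Socs1, an inhibitor of interferon and cytokine signaling, averaged 1.70 ± 0.249 CPM in WT-SD, 4.36 ± 0.288 in WT-TGF, 2.22 ± 0.162 in KO-SD and 4.88 ± 0.599 in KO-TGF (SD, n = 3). It rose with TGF-β as Socs2 did (log2 fold change 1.35, edgeR adjusted p = 8.50e-09 in WT and 1.13, edgeR adjusted p = 7.75e-08 in KO), but its KO to WT differences of 0.38 in SD (edgeR adjusted p = 0.08) and 0.17 under TGF-β (edgeR adjusted p = 0.285) did not pass. Between the genotypes, KO was higher for 2 of the 6 and lower for 2 in SD, and higher for 2 and lower for 3 under TGF-β. Of all genes tested, 30.6% were higher and 25.3% lower in SD, and 27.3% and 27.7% under TGF-β. Socs4 and Socs6 were higher in KO in both conditions. Socs3, the feedback inhibitor of IL-6 family receptors, was lower in KO in SD (-0.39, edgeR adjusted p = 6.04e-06) and under TGF-β (-0.49, edgeR adjusted p = 8.50e-07). Socs5 was the one of the 6 with a called interaction (-0.26, edgeR adjusted p = 0.000456), rising in WT from 72.4 ± 1.22 to 84.2 ± 2.39 CPM and averaging 76.9 ± 4.46 and 74.7 ± 0.958 in KO. Socs6 rose by 0.42 in WT (edgeR adjusted p = 3.85e-08) and 0.41 in KO (edgeR adjusted p = 4.22e-08).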
